A study of Homo sapiens with 6 samples.

Results

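The genes of the proteasome, its activators and its assembly chaperones were followed in Capan-1 cells transfected with p16 and in mock-transfected cells. The members are the genes whose symbol in the array's annotation starts with PSMA, PSMB, PSMC, PSMD, PSME or PSMG, with 1 subunit gene left out, which gave 48 of the 19775 genes named on the array. Of these, 40 encode parts of the proteasome or proteins that activate or assemble it, with 76 probe sets, and 8 share only the start of the symbol and are given apart. Probe sets entered the test if 3 or more of the 6 samples had a log2 level of 4 or above, and 39 of the 40 genes passed with at least 1 probe set (64 probe sets in all). The exception was PSMA8, the alpha subunit typical of testis, which lay between 3.06 and 3.25 in every sample and is not compared.

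The proteasome is the large protease that breaks down proteins tagged with ubiquitin. Its barrel-shaped core is built from alpha subunits, which form the outer rings and the gate, and beta subunits, some of which carry the active sites. A regulatory cap on the end of the barrel recognises the ubiquitin chain, removes it and unfolds the substrate: the base of the cap holds the ATPases (PSMC genes) and scaffold and receptor subunits, and the lid holds the deubiquitinase PSMD14 and its supporting subunits. Interferon can exchange the catalytic beta subunits for those of the immunoproteasome, which shapes the peptides shown on MHC class I, and other activators (PSME genes) can replace the cap. Cancer cells depend on the proteasome, and it clears many cell cycle regulators.

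Capan-1 is an established human pancreatic carcinoma line, and CDKN2A encodes p16, an inhibitor of the kinases CDK4 and CDK6. The p16 group holds 3 samples of cells carrying a full-length p16 cDNA driven by the cytomegalovirus promoter, the mock group holds 3 mock-transfected samples, and the protocol shared by all 6 names 2 selection drugs, G418 (1 mg/ml) and hygromycin (0.1 mg/ml). Samples are numbered V1, V2 and V3 in both groups, and the labels say neither what the number stands for nor whether a group is 1 clone or was grown as separate cultures. The p-values therefore rest on the spread among 3 samples a group, and that spread may be technical. Each RNA was read on 1 Affymetrix array, whose number limits the precision, and all levels below are GCRMA-normalized log2 expression levels, with differences as p16 minus mock.

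Calls were frequent across the genome. Among 11658 genes tested, 42.0% were called by limma (Benjamini-Hochberg adjusted p under 0.05 over all tested probe sets), 19.5% higher and 22.5% lower in p16 cells. CDKN2A was 96.1-fold higher in p16 cells, and MTAP, its neighbour, which is no part of the cDNA, read 10.77 to 11.35 in p16 samples and 2.06 to 2.07 in mock samples (log2 level). Within 1 Mb of CDKN2A, 23 genes are on the array, and 17 of them lay under 4 in every sample. The remaining genes are CDKN2A and 5 others, HACD4, KLHL9, MIR31HG, MTAP and CDKN2B, and each of those 5 was detected (level of 4 or more) in all 3 p16 samples and in no mock sample. KLHL9, for example, read 11.69, 11.29 and 11.54 in p16 cells, against 2.71, 2.73 and 2.72 in mock cells. A p16 cDNA carries none of these 5 genes, which were looked up after the values of MTAP were seen, and whether both groups derive from the same cells was not tested. In every difference below, an effect of p16 and a difference between the cell populations cannot be told apart. All 6 epithelial markers were detected in every sample, with a mean level of 12.33 to 12.56 in p16 samples and 14.18 to 14.50 in mock samples, and 4 of them (KRT8, KRT18, KRT19 and CDH1) were called lower. The brightest probe sets of 4 leukocyte and 4 endothelial markers stayed under 4 in every sample. Of 5 fibroblast markers, COL1A1 was detected in both groups (2 of its 3 tested probe sets were called higher in p16 cells, its brightest was not called), LUM in p16 cells alone (at least 30.4-fold higher), and 3 lay under 4 throughout; the part of these differences in the results below was not tested. In RNA of whole cultures, fewer cells of a kind and less RNA per cell cannot be told apart.

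Most proteasome genes did not pass the test, and those that did belong to the cap, the immunoproteasome and the activators. By the brightest tested probe set of each gene, 4 of 39 were higher (PSMD2, PSMD8, PSMD12 and PSMD14), 3 were lower (PSMD3, PSMB10 and PSME1) and 32 were not called, 17.9% called beside 42.0% of all genes. The median change was 0.08 over the 39 genes and -0.03 over all genes tested, and the median size of a change, whatever its sign, was 0.46 and 0.80. The changes ran from -1.20 to 1.82, against -11.25 to 13.48 over all genes. The groups did not overlap for 13 of the 39 genes (33.3%), beside 56.4% of all genes. A difference of at least 2-fold was found in 6 of the 39, beside 41.9% of all genes.

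Proteasome genes are bright on this array, with a median level of 12.92 against 9.08 for all genes tested, so a second background was taken from bright genes, a choice made after the values were seen. Among the 2538 genes with a mean level of at least 11, 32.7% were called, and among the 35 proteasome genes that bright, 17.1% were called. When the fit also held a term for the V number (a replicate block, taken up next), the shares were 51.4% of the 35 and 65.0% of all genes that bright. The median size of a change was 0.44 in those 35 genes and 0.59 in all genes that bright.

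Same-numbered samples of the groups moved together, so a fit that compares them within each number was run beside the first. Whether V2 and V3 are matched between the groups was not tested. With that block, 21 of the 39 genes were called, 15 higher and 6 lower (53.8%), beside 67.9% of all genes. The 7 genes named above kept their direction and call, and 14 were added: PSMA2, PSMA4, PSMB5, PSMC4, PSMD6, PSMD11, PSME4, PSMD10, PSMG1, PSMG2 and PSMG4 higher, and PSMC1, PSMD4 and PSMG3 lower. In 33 of the 39 genes the difference had the same sign at all 3 V numbers, 18 times higher in p16 cells and 15 times lower. Over all genes, 41.8% were higher and 43.1% lower at all 3 numbers.

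**Figure D1:**
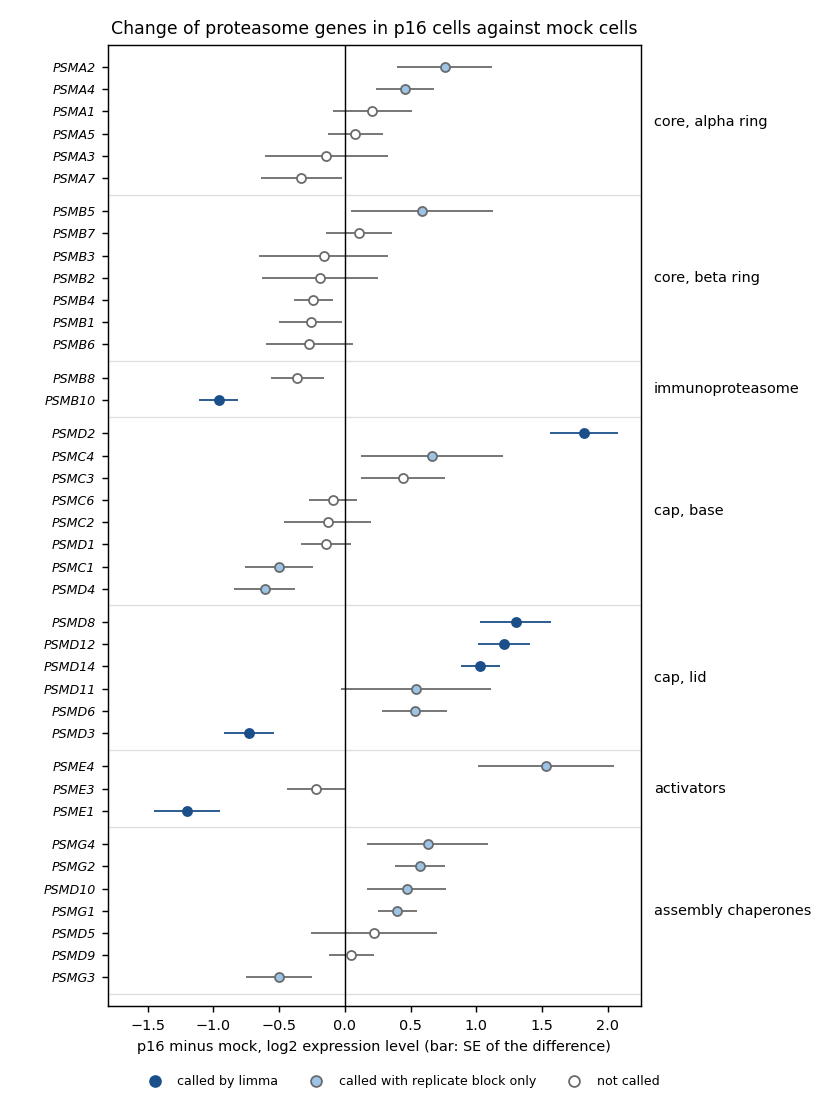
Each point is the difference p16 minus mock (log2 level, horizontal axis) of the brightest tested probe set of 1 of 39 proteasome genes, with its SE from limma as a bar; dark points were called, light points were called only with the replicate block, open points were not called. The 13 core genes lie within 0.76 of 0, and PSMD2 in the base, PSMD8, PSMD12 and PSMD14 in the lid and PSME1 among the activators lie more than 1 from it and are called.

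By the brightest probe sets, the alpha ring of the core did not pass the test. None of its 6 tested genes was called, with changes from -0.33 (PSMA7) to 0.76 (PSMA2) and a median of 0.14, and 2 were called with the replicate block, beside 42.0% and 67.9% of all genes. PSMA2 read 13.98, 14.62 and 14.64 in p16 cells V1, V2 and V3, against 12.98, 13.93 and 14.05 in mock cells. The V1 sample was the low one in both groups, and the groups overlapped, while p16 lay above mock at each number. The difference was 0.76 (SE 0.36, adjusted p = 0.16 by limma, and 0.0081 with the replicate block). PSMA4 differed by 0.46 (adjusted p = 0.16, and 0.034 with the block). PSMA1, PSMA3, PSMA5 and PSMA7 differed by 0.21, -0.14, 0.08 and -0.33 on their brightest probe sets, called by neither fit. A dimmer probe set of PSMA5 was called lower by both fits and is described with the other probe sets below.

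In the beta ring, which holds the proteolytic sites, 0 of 7 genes were called by limma on the brightest probe set and 1 with the replicate block. These stand beside 42.0% and 67.9% of all genes, and the differences ran from -0.27 to 0.59. The 3 catalytic subunits of the standard core had differences of either sign. PSMB5, which carries the chymotrypsin-like site and is the target of the drug bortezomib, read 13.75, 12.86 and 12.71 in p16 cells, against 13.57, 12.16 and 11.83 in mock cells. Its V1 samples were the highest of each group and the groups overlapped, with a difference of 0.59 (SE 0.54, adjusted p = 0.45, and 0.041 with the block). PSMB6, with the caspase-like site, read 13.24, 12.74 and 12.63 in p16 cells, against 13.73, 13.03 and 12.67 in mock cells (difference -0.27, adjusted p = 0.57). PSMB7, with the trypsin-like site, read 12.70, 13.24 and 13.31 in p16 cells, against 12.65, 13.02 and 13.24 in mock cells (difference 0.11, adjusted p = 0.77). The values of both overlapped between the groups.

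Of the structural beta subunits, PSMB4 was the only one whose groups did not overlap on the brightest probe set, as was the case in 56.4% of all genes. It read 14.39, 14.33 and 14.27 in p16 cells, against 14.64, 14.46 and 14.60 in mock cells, a difference of -0.24 (SE 0.15, adjusted p = 0.27). Its dimmer probe sets differed by -0.25 and 0.10, and on both the groups overlapped. PSMB1, PSMB2 and PSMB3 differed by -0.26, -0.19 and -0.16 on their brightest probe sets, and on these none of the 3 was called with the block. Both dimmer tested probe sets of PSMB2 went the other way, each with a difference of 0.80. One was called higher by limma (adjusted p = 0.02) and the other only with the block (adjusted p = 0.0064).

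Of the 2 immunoproteasome subunits, PSMB10 was called lower in p16 cells and PSMB8 was not called. PSMB10 encodes the interferon-inducible counterpart of the trypsin-like subunit PSMB7. It read 9.02, 9.05 and 9.07 in p16 cells, against 9.88, 10.06 and 10.08 in mock cells, so the groups lay apart with little spread within either. The level was 1.94-fold lower in p16 cells (difference -0.96, SE 0.15, adjusted p = 0.0044), and it lay between -0.86 and -1.01 at each V number. PSMB8, the counterpart of PSMB5, read 11.06, 10.80 and 10.81 in p16 cells, against 11.57, 11.12 and 11.06 in mock cells. Its lowest mock value equals its highest p16 value at this rounding, and the difference of -0.36 (SE 0.20) missed the threshold (adjusted p = 0.23, and 0.054 with the block).

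PSME1 had the most negative difference of the 39 genes by the brightest probe set. It encodes the alpha subunit of the interferon-inducible activator that opens the core without ATP. It read 11.05, 11.40 and 11.52 in p16 cells, against 12.13, 12.66 and 12.80 in mock cells. V1 was the low sample in both groups, and no p16 sample reached any mock sample. The level was 2.30-fold lower in p16 cells (difference -1.20, SE 0.25, adjusted p = 0.013). PSME3, which encodes the nuclear member of the same activator family, read 12.05, 12.16 and 11.79 in p16 cells, against 12.22, 12.51 and 11.92 in mock cells. These values overlapped (difference -0.22, adjusted p = 0.49), and its 4 probe sets ran from -0.22 to 0.32 with no call.

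PSME4 went the other way. It encodes a large single-chain activator of the nucleus that has been tied to histone breakdown in germ cells and to DNA repair. It read 12.14, 10.99 and 11.07 in p16 cells, against 10.83, 9.33 and 9.45 in mock cells. V1 was the highest sample of both groups, and each p16 sample still lay above every mock sample. The level was 2.89-fold higher in p16 cells (difference 1.53, SE 0.52), which missed the threshold without the block (adjusted p = 0.068) and passed with it (adjusted p = 0.00094). At the V numbers the difference was 1.31, 1.66 and 1.62. Its other probe sets differed by 0.43 and 1.80, with overlapping groups and no call by limma (adjusted p = 0.46 and 0.12). With the block only the second was called (adjusted p = 0.053 and 0.01).

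The sequence before the start of PSMB10, PSMB8 and PSME1 was read because interferon-inducible promoters often hold an element bound by interferon regulatory factors. RefSeq windows (GRCh38.p14) from 250 bases before to 50 after each annotated start were searched on both strands for GAAA followed, after any 2 bases, by another GAAA. A window was at hand for 34 of the 40 genes, and 6 of the 34 held a match (17.6%), beside 3.89% of the tested genes with a window; the motif was chosen with the values known, and a match is a description of letters, not of a bound site. Those 6 are PSMA4, PSMB4, PSMB8, PSMB10, PSME1 and PSMG4, and in PSMB8, PSMB10, PSME1 and PSMG4 the 10 letters were the same, GAAAGCGAAA, on either strand. The stretches below show these 4, with the match in capitals, written along the gene's own strand. PSMB10 lies on the minus strand of chr16:67936851-67936930 (bases -80 to -1 from the start), PSMB8 on the minus strand of chr6:32844038-32844117 (-70 to 10), PSME1 on the plus strand of chr14:24136134-24136213 (-60 to 20) and PSMG4 on the plus strand of chr6:3258867-3258946 (-80 to -1).
PSMB10: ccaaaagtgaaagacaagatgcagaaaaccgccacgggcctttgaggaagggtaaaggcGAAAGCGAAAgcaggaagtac
PSMB8: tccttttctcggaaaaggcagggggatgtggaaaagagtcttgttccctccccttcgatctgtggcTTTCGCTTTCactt
PSME1: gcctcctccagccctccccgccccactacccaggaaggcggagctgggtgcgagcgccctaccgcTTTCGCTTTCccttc
PSMG4: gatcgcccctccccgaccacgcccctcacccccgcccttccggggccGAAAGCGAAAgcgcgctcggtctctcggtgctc
The element starts at base -21 in PSMB10 and at -33 in PSMG4, and it overlaps or follows the start itself in PSMB8 (from -4) and PSME1 (from 6), where the opposite strand reads GAAAGCGAAA. None of these 4 matches overlaps a match to the other motifs searched. PSMG4, with the same letters, had a difference of 0.63, above 0 and not called by limma.

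**Figure D2:**
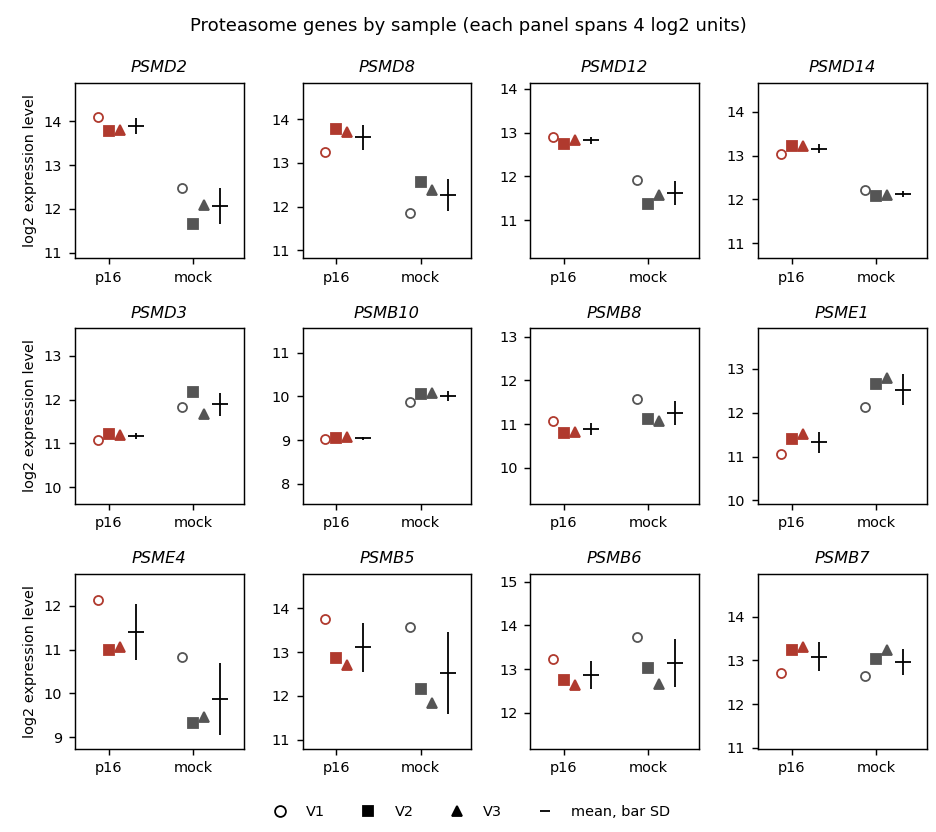
Log2 expression level (vertical axis, 4 units in every panel) of 12 proteasome genes in the 3 p16 and the 3 mock samples, with the V number as the symbol and the mean with its SD beside each group. PSMD2, PSMD8, PSMD12 and PSMD14 lie higher and PSMD3, PSMB10 and PSME1 lower in every p16 sample than in any mock sample, while the catalytic subunits PSMB5, PSMB6 and PSMB7 overlap.

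In the base of the cap, PSMD2 stood apart from the ATPases. PSMD2 encodes the scaffold subunit that docks ubiquitin receptors and shuttle factors. It read 14.09, 13.77 and 13.81 in p16 cells, against 12.47, 11.65 and 12.09 in mock cells. Every p16 sample lay above every mock sample, and p16 cells spread less than mock cells. The level was 3.53-fold higher in p16 cells (difference 1.82, SE 0.26, adjusted p = 0.0031), the largest change of the 39 genes by the brightest probe set, and it lay between 1.62 and 2.12 at each V number.

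None of the 5 tested ATPase genes was called by limma on its brightest probe set, beside 42.0% of all genes. PSMC4 differed by 0.66 (adjusted p = 0.39, and 0.0068 with the block) and PSMC1 by -0.50 (adjusted p = 0.19, and 0.021 with the block). PSMC2, PSMC3 and PSMC6 differed by -0.13, 0.44 and -0.09. PSMD1, the other large scaffold subunit, differed by -0.14. PSMD4, which encodes a ubiquitin receptor, read 12.49, 12.81 and 12.95 in p16 cells, against 13.10, 13.32 and 13.68 in mock cells. These values did not overlap, and its 3 tested probe sets differed by -0.61, -0.62 and -0.66, yet none passed the threshold without the block (adjusted p = 0.084 for the brightest, and 0.0093 with the block).

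In the lid, 4 of 6 genes were called, 3 of them higher, and all 6 were called with the block, beside 42.0% and 67.9% of all genes. PSMD8 encodes a lid subunit whose yeast counterpart joins late in assembly. It read 13.24, 13.78 and 13.71 in p16 cells, against 11.86, 12.57 and 12.39 in mock cells. V1 was low in both groups, and the groups lay apart by more than that gap. The level was 2.47-fold higher (difference 1.30, SE 0.27, adjusted p = 0.012), with adjusted p = 0.051 without p16 V2 and 0.053 without p16 V3.

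PSMD12, a further lid subunit, read 12.90, 12.74 and 12.84 in p16 cells, against 11.92, 11.36 and 11.58 in mock cells. Its p16 values lay within a narrow band above all mock values, 2.31-fold higher (difference 1.21, SE 0.20, adjusted p = 0.0055), and its other probe set differed by 1.01 (adjusted p = 0.054, and 0.0018 with the block). PSMD14 encodes the metalloprotease that cuts the ubiquitin chain from the substrate. It read 13.03, 13.23 and 13.21 in p16 cells, against 12.21, 12.08 and 12.10 in mock cells. The groups were narrow and apart, 2.04-fold higher in p16 cells (difference 1.03, SE 0.15, adjusted p = 0.0037).

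PSMD3, another lid subunit, moved against them. It read 11.08, 11.21 and 11.18 in p16 cells, against 11.82, 12.17 and 11.68 in mock cells. The groups did not overlap, and the level was 1.66-fold lower in p16 cells (difference -0.73, SE 0.19, adjusted p = 0.027). This call was lost without p16 V1 (adjusted p = 0.06), p16 V2 (0.075), p16 V3 (0.086) or mock V2 (0.068), and with each array centred on its median (0.051). PSMD6 and PSMD11, the remaining lid genes, differed by 0.53 and 0.54 on their brightest probe sets, both called higher only with the block (adjusted p = 0.025 each). PSMD7 and PSMD13, further lid subunits, and PSMC5, an ATPase, were not analysed here.

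Other motifs were looked for in the promoters of the cap genes. TGACNNNGC, the letters of the antioxidant element through which NFE2L1 drives proteasome genes, matched in 12 of the 34 proteasome genes with a window (35.3%), beside 19.7% of tested genes. Of the called genes, PSMD12, PSMD3 and PSME1 held it, while PSMD2, PSMD8, PSMD14 and PSMB10 did not within these windows, so the match was found in genes that went either way. CCAAT, the box read by NF-Y, matched in 16 of 34 (47.1%), beside 43.5% of tested genes. The stretches of 4 lid genes are shown because these genes passed the test, with TGACNNNGC in capitals for PSMD12 (chr17:67366698-67366777, minus strand, starting at base -200) and PSMD3 (chr17:39980727-39980806, plus strand, -80 to -1), and CCAAT on either strand for PSMD8 (chr19:38374451-38374530, plus strand, -120 to -41) and PSMD14 (chr2:161308335-161308414, plus strand, -90 to -11).
PSMD12: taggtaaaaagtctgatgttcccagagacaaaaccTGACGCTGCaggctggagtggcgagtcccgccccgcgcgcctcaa
PSMD3: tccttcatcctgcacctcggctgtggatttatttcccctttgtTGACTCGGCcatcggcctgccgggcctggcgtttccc
PSMD8: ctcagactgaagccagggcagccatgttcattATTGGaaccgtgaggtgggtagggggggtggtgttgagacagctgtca
PSMD14: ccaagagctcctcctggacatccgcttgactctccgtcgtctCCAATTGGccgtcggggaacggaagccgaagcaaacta
In PSMD14 the match on each strand shares letters with the match on the other, so the capitals run together, and in PSMD8 the box stands on the opposite strand.

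None of the 7 assembly chaperones was called by limma, while 5 were called with the block, beside 42.0% and 67.9% of all genes. Of the 7 differences, 6 were above 0. They escort core subunits (PSMG genes) or ATPases (PSMD5, PSMD9 and PSMD10) into place and leave the finished particle. PSMG2 read 13.72, 14.01 and 14.07 in p16 cells, against 13.16, 13.40 and 13.53 in mock cells. The groups did not overlap, and the difference of 0.57 (SE 0.19) had an adjusted p of 0.063, and 0.0098 with the block. PSMG1, its partner in the alpha-ring chaperone, differed by 0.40 (adjusted p = 0.088, and 0.033 with the block), and PSMG4 by 0.63 (0.34, and 0.041 with the block). PSMG3, the partner of PSMG4, differed by -0.50 (0.17, and 0.03 with the block). PSMD10, also known as the oncoprotein gankyrin, which binds CDK4 and the retinoblastoma protein, differed by 0.47 (0.28, and 0.017 with the block).

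The V1 samples were the outermost in most members, as in most genes. In 34 of the 39 genes (87.2%) the V1 sample was the outermost in both groups on the same side, the lowest in 19 and the highest in 15, beside 65.7% of all genes tested. The lowest place was taken by V1 in both groups in 48.7% of the proteasome genes and 26.2% of all genes, the highest in 38.5% and 39.5%. PSMD11, for example, differed between V1 and the mean of V2 and V3 by -1.57 in p16 cells and by -1.21 in mock cells. PSMB3, a beta subunit, had gaps of -0.90 in p16 and -1.41 in mock cells, and PSMB5 of 0.96 in p16 and 1.57 in mock cells. The median size of the gap over the 39 genes was 0.46 in p16 and 0.56 in mock cells, beside 0.47 in p16 and 0.51 in mock cells over all genes tested.

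**Figure D3:**
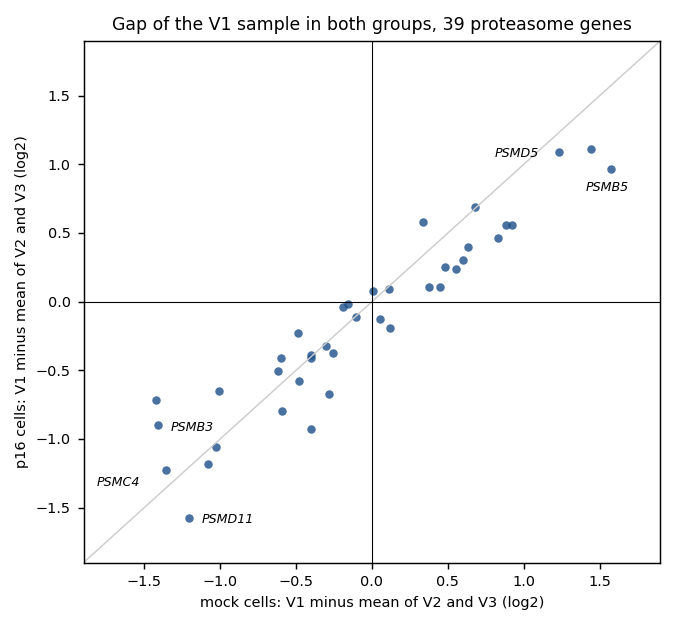
For each of 39 proteasome genes, the log2 level of the V1 sample minus the mean of V2 and V3, in mock cells (horizontal axis) and p16 cells (vertical axis); the grey line marks equal gaps. The points run along that line from about -1.57 to 1.57, so a gene that is low or high in V1 of p16 cells is mostly so in V1 of mock cells.

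Probe sets of 1 gene did not always move together. Of 17 genes with more than 1 tested probe set, 12 had the same sign throughout and 5 did not, and no gene was called in both directions. In 4 genes the brightest probe set was not called and a dimmer one was: lower for PSMA5 and PSMC2, higher for PSMB2 and PSMD11. These 4 were singled out after their values were seen. The dimmer probe set of PSMA5, an alpha subunit, read 6.21, 3.50 and 4.77 in p16 cells, against 9.21, 7.32 and 8.11 in mock cells. With the p16 value under 4 raised to 4 it was at least 9.31-fold lower (adjusted p = 0.022 on the values as deposited), while the brightest differed by 0.08. The dimmer one of PSMD11 read 9.76, 9.12 and 9.37 in p16 cells, against 8.67, 7.39 and 7.96 in mock cells (difference 1.41, adjusted p = 0.031). Which transcripts these probe sets read was not tested. Over all 64 tested probe sets, 6 were higher and 5 lower, 17.2% called beside 37.2% of all tested probe sets.

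**Figure D4:**
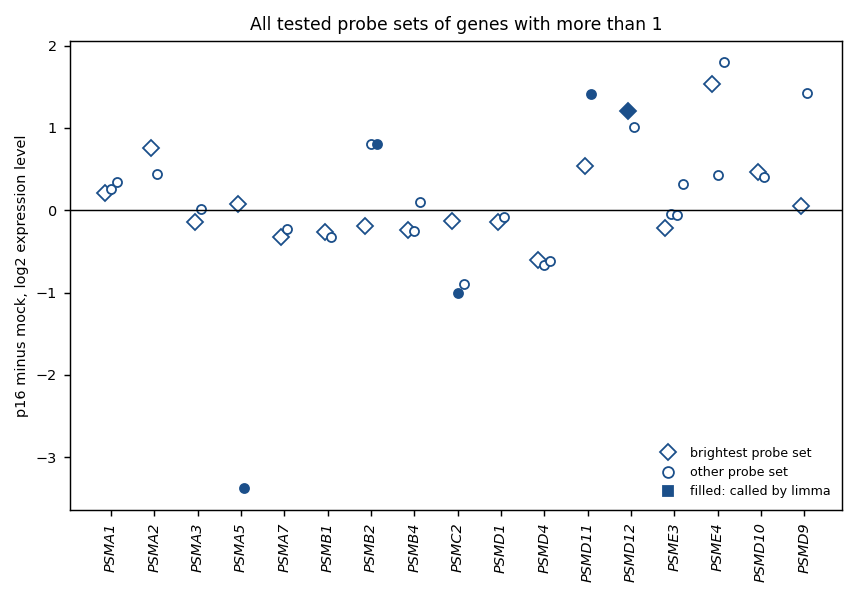
Difference p16 minus mock (log2 level, vertical axis) of every tested probe set of the 17 proteasome genes with more than 1; diamonds are the brightest probe set, circles the others, and filled symbols were called by limma. All values are plotted as deposited; the dimmer probe set of PSMA5, whose p16 V2 value is under 4, lies lowest, with at least a 9.31-fold difference beside 0.08 for its brightest, while those of PSMD4 and PSMD12 lie close together.

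Genes that serve the proteasome without belonging to the families above were taken from a list of 35, of which 30 were tested: 7 were higher, 3 lower and 20 not called, and the block raised this to 12 higher and 5 lower. These are 33.3% and 56.7% of the 30 genes, beside 42.0% and 67.9% of all genes. Their median difference was 0.17. The largest rise was in UBA6, an enzyme that activates ubiquitin, which read 10.68, 11.31 and 11.48 in p16 cells, against 7.91, 8.74 and 9.22 in mock cells, 5.80-fold higher (adjusted p = 0.0049), with all 4 of its tested probe sets called. UBQLN2, a shuttle factor, was 2.36-fold higher (adjusted p = 0.0026), and VCP, the ATPase that pulls substrates out of complexes and membranes ahead of the proteasome, was 2.28-fold higher (adjusted p = 0.012). ZFAND2A, a stress-inducible partner of the proteasome, was 2.36-fold higher (adjusted p = 0.0073). Its relative ZFAND5 was 2.55-fold lower on its brightest probe set (adjusted p = 0.011), with 1 of its 2 tested probe sets called. UBQLN1, the relative of UBQLN2, was 1.74-fold lower (adjusted p = 0.035). NFE2L2, a stress transcription factor with proteasome genes among its targets, was 1.75-fold lower on its brightest probe set (adjusted p = 0.019), and NFE2L1, the factor that restores proteasome genes when the protease is blocked, differed by -0.25 (adjusted p = 0.47). ADRM1 and SEM1, cap subunits whose symbols lie outside the families, differed by -0.10 and -0.53 and were not called by limma.

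Genes of the interferon and antigen-processing route, which shares regulators with the immunoproteasome, split, with 1 of 7 tested higher and 3 lower (57.1% called, beside 42.0% of all genes), and 4 of the 7 differences above 0. NLRC5, the transactivator of MHC class I genes, read 2.81 to 3.64 in p16 cells, against 8.31 to 10.03 in mock cells, at least 34.6-fold lower (adjusted p = 0.00038). IRF1, an interferon regulatory factor, was 1.97-fold lower (adjusted p = 0.045), and B2M, the light chain of MHC class I, was 1.59-fold lower on its brightest probe set (adjusted p = 0.023). TAP2, a subunit of the peptide transporter, was 8.56-fold higher on its brightest probe set (adjusted p = 0.0013), with 2 of its 3 tested probe sets called. Its partner TAP1 differed by 0.30 (adjusted p = 0.32). TAPBP, which loads peptides on MHC class I, differed by 0.28 (adjusted p = 0.69), and ERAP1, which trims them, by 0.53 (adjusted p = 0.64, and 0.046 with the block). The part of these genes in the levels of PSMB10 and PSME1 was not tested.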

How the data were processed

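RNA of 3 p16 and 3 mock samples had been labelled from 300 ng each, per the labels' protocols. The deposited values are log2 levels made by the authors with GCRMA (version not given in the sources used here), per the submitters' processing notes. This method corrects background by probe sequence, so a low value is no true zero, and a fold against a group under 4 was computed against 4 and is a bound. The columns were matched to samples by name, and 62 control probe sets were left out of 54675. GEO's platform annotation named 41091 probe sets with 1 gene and 1801 with several, which were used for no gene, so PSMA6 and PSME2 have no value; PSMB11 was not analysed here, 1 further subunit gene is not reported here, and 11721 probe sets are unnamed here. 

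The groups were compared with limma 3.58.1 in R 4.3.3 (lmFit, eBayes, two-sided, no block) over 24406 probe sets, with Benjamini-Hochberg adjustment. Each gene stands for its brightest tested probe set by the mean of the 6 samples. The deviations of same-numbered samples from the group means correlated at 0.814 (V1), 0.751 (V2) and 0.669 (V3). Each exceeds 0.1, and on that ground the number was used as a block in a fit that stands beside the results it changes. Differently numbered samples were not compared, and a V1 gap shared by the groups would raise all 3 values. They therefore cannot tell whether V2 and V3 are matched between the groups. The named genes are, per class, up to 3 called genes each way or the smallest adjusted p, every immunoproteasome and activator gene, the catalytic subunits and up to 5 pathway genes each way; NFE2L1, B2M, TAP1 and other genes given by difference were added after their values were seen. Members and lists were chosen with earlier results of these data known. The limma step was tested on simulated data. Promoter windows are RefSeq's. Python 3.11.15, pandas 2.3.3 and matplotlib 3.10.9 made the tables and figures.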

Additional observations from a re-analysis of the deposited data

How the results depend on the processing

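The 7 called genes out of 39 became 21 with the replicate block by V number (15 higher and 6 lower), beside 67.9% of all genes. They became 13 with the mean of all tested probe sets of a gene (8 higher and 5 lower), beside 47.9% of all genes. Without both V1 samples, a setting chosen after the data were seen, 17 were called (13 higher), beside 58.9% of all genes. With the probe set of largest variance, 10 genes were called, 5 of them lower, beside 41.4% of all genes. All 7 stayed called in the same direction in these 4 settings. The filter at 6, no filter, quantile normalization, the trended robust prior and the test without moderation gave 7 or 8 calls and kept the same 7. Centring each array on its median gave 7 and kept 6, with PSMD3 lost. Over all genes, 20.4% were called with no filter, 35.2% without moderation and 41.6% to 42.7% in the rest of these settings. Leaving out 1 sample at a time gave 5 to 9 called genes, 3 to 7 higher and 2 to 3 lower, beside 29.9% to 42.2% of all genes. The median change was then -0.0004 to 0.16. The median change of the family, 0.08, was 0.22 with the mean of probe sets and 0.32 with the most variable ones. PSMB10, PSMD2, PSMD12, PSMD14 and PSME1 kept their call in all 16 settings, with changes of -1.02 to -0.90, 1.61 to 2.02, 1.08 to 1.36, 0.99 to 1.13 and -1.41 to -1.07. Among the 16 genes followed singly through the settings, signs turned only for genes not called. PSME3 turned to 0.0007 (mean of probe sets) and 0.32 (most variable probe set), and PSMB4 to 0.10 (most variable probe set). PSMB6 turned to 0.02 without mock V1, and PSMB7 to -0.05 without mock V1 and -0.0004 without p16 V3. Leaving out 1 sample at a time gave -0.51 to 0.02 for PSMB6, -0.05 to 0.30 for PSMB7 and 0.24 to 1.11 for PSMB5. It gave 0.42 to 0.97 for PSMA2 and -0.37 to -0.07 for PSME3. Genes outside the 16 can also turn with the probe set taken. PSMA5 differed by 0.08 on the brightest and -3.38 on the dimmer one (called lower), and PSMB2 by -0.19 and 0.80. The cause was not tested. Of 256 single-gene values, 228 kept direction and side of the threshold, 7 lost the call and 15 gained it.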

Other observations

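The 8 genes that share only the start of a proteasome symbol include transcripts read from beside or across proteasome genes, and 6 of them were tested, with 1 higher and 3 lower (66.7% called, beside 42.0% of all genes). PSMB8-AS1, an RNA antisense to the PSMB8 region, read 6.23, 6.38 and 7.04 in p16 cells, against 8.34, 8.55 and 9.30 in mock cells. It was 4.53-fold lower (limma adjusted p = 0.005), a larger change than the -0.36 of PSMB8. PSMG3-AS1 lay under 4 in every p16 sample and between 5.49 and 6.58 in mock samples, at least 3.74-fold lower (adjusted p = 0.0027), and PSMD6-AS2 was 2.79-fold higher (adjusted p = 0.028). PSME3IP1, which encodes a binding partner of PSME3, was 1.92-fold lower (adjusted p = 0.0052), with 3 of its 4 probe sets called; its p16 values were 10.99 in all 3 samples. PSMC3IP, a recombination factor, had a difference of 0.67 on the brightest probe set (adjusted p = 0.073; with the block, 0.02), and 1 of its 2 probe sets was called higher. PSMA3-AS1 differed by -0.38 on its brightest probe set and was called lower on 1 dimmer one. PSMD7-DT and PSMD14-DT stayed under 4 throughout. These 8 genes fall outside the rule for named genes and were described after their values were seen.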
